A study of Saccharomyces cerevisiae with 4 samples.

Results

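The subject of these results is the set of genes for the subunits of the 3 nuclear RNA polymerases of Saccharomyces cerevisiae. Members were the tested gene models whose standard symbol is RPA, RPB, RPC or RPO followed only by digits, or RET1. RPO41, the mitochondrial polymerase, was left out. The rule found 31 genes among 5331 named genes with a test, each with 1 gene model. They comprise 7 genes particular to RNA polymerase I, 7 particular to RNA polymerase II, 10 particular to RNA polymerase III, 2 shared by polymerases I and III, and 5 shared by all 3 enzymes.

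Messenger RNA was sequenced in 4 libraries, 2 of the minimal glycolysis strain IMX372 and 2 of the reference strain CEN.PK113-7D. IMX372 is a MATa strain in which 13 minor paralogs of glycolysis and alcoholic fermentation were removed. In its genotype label GLK1, HXK1 and TDH1 are replaced by the markers SpHis5, KlLEU2 and KlURA3, TDH2, GPM2, GPM3, ENO1 and PYK2 are listed as lost, and so are PDC5, PDC6, ADH2, ADH4 and ADH5. It also carries mutant alleles of URA3, HIS3 and LEU2, the genes of uracil, histidine and leucine synthesis used as markers. Effects of the markers and of the deletions cannot be told apart. CEN.PK113-7D is the prototrophic MATa control, and both strains carry MAL2-8c and SUC2. Both grew in aerated batch bioreactors at 30 °C and pH 5 in a synthetic medium that held 20 g/L of glucose, and were sampled in mid-exponential growth. The question of the comparison was what removal of the minor paralogs does to expression elsewhere in the genome.

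Eukaryotic nuclei divide transcription among RNA polymerase I, which makes the large ribosomal RNA precursor, RNA polymerase II, which makes messenger RNA, and RNA polymerase III, which makes transfer RNAs and the smallest ribosomal RNA. Each enzyme has a core of a largest and a second-largest subunit that form the active site, an assembly platform of 2 subunits related to bacterial alpha, and small subunits common to all. A stalk and, in polymerases I and III, further built-in subunits that resemble polymerase II initiation factors complete them. Polymerases I and III supply the RNA of the ribosome and of translation, and in yeast their activity is known to follow growth. Only messenger RNA of the subunits is described below, not polymerase protein or activity, and ribosomal and transfer RNA were not analysed here.

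The level of each gene is an FPKM, fragments per kilobase of model scaled to the size of the library, of which the authors deposited 1 value per strain, pooled over its libraries. No value below therefore has an SD, and the spread between libraries of a strain is not known from the table. The q-values are those of the authors' Cuffdiff test over all models, with a difference called at a q of at most 0.05. How Cuffdiff estimated the spread is not given in the sources used here. The labels describe 4 independent cultivations per strain but do not say outright that the 2 libraries of a strain came from different ones. The depth per gene is unknown. GPM3, a deleted phosphoglycerate mutase gene, was listed at 0 FPKM in IMX372 and had 57.7 FPKM in the reference, as its genotype label requires. Of the markers of mating type a, the pheromone receptor gene STE2 had 990 FPKM in IMX372 and 971 FPKM in the reference. The alpha-cell receptor gene STE3 had 7.63 FPKM in IMX372 and 9.97 FPKM in the reference. The 4 markers of mating type alpha ranged from 4.41 to 35.3 FPKM in IMX372 and from 6.45 to 32.3 FPKM in the reference, and the 6 of mating type a from 21.8 to 56430 FPKM in IMX372 and from 20.1 to 61347 FPKM in the reference.

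None of the 31 subunit genes was called different between the strains. In the authors' deposited table, Cuffdiff called 0.791% of the 5437 tested models, 0.515% as higher and 0.276% as lower in IMX372, and all 31 members had a q of 0.998. At a q of 0.01, which 0.681% of tested models passed, or at a change of at least 2-fold, which 0.570% showed, the count was likewise 0 of 31. At an unadjusted Cuffdiff p under 0.05 the count was also 0 of 31, beside 3.27% of all tested models. The ratios of IMX372 over the reference ran from 0.945-fold for RPO31 to 1.25-fold for RPB10. The smallest change called anywhere in the table was 1.57-fold, which is larger than the ratio of any member. On the log2 scale the members had a median ratio of 0.14, beside 0.01 over all tested genes, and 26 members lay above 0 and 5 below. That is 83.9% of the members above 0, beside 53.0% of all tested genes. Genes are not replicates of a strain, so this lean is a description of the pooled values and carries no test.

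**Figure D1:**
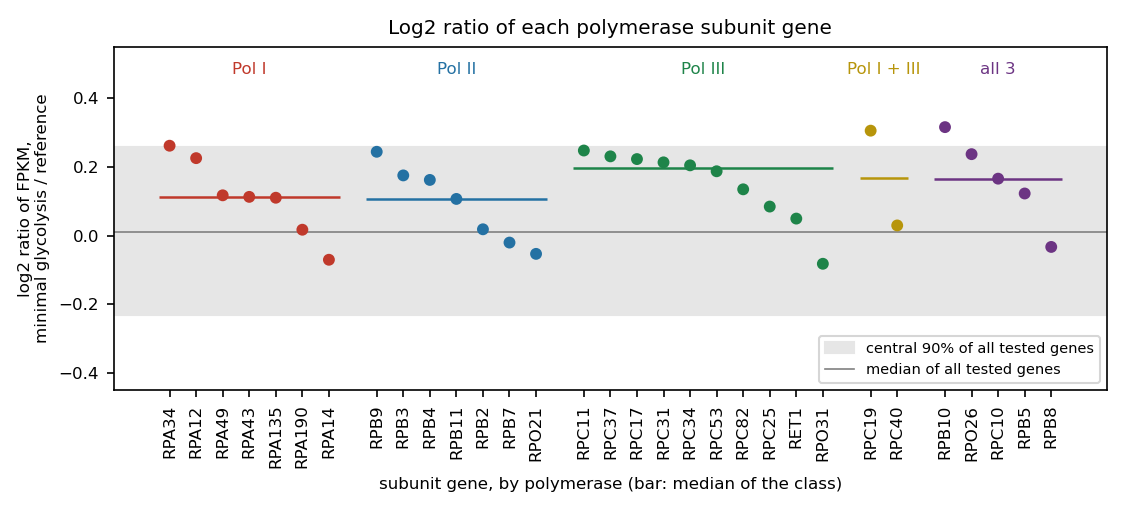
Log2 ratio of FPKM, minimal glycolysis strain over reference, for each of the 31 subunit genes (points), grouped by polymerase, with the median of each class as a bar. The grey band holds the central 90% of all tested genes, and RPB10 at 0.32, RPC19 at 0.31 and RPA34 at 0.26 lie just above its upper edge.

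Polymerase I is described by its 7 own subunits. RPA190, which forms the active site with RPA135, had 66.5 FPKM in IMX372 and 65.7 FPKM in the reference, a log2 ratio of 0.02. RPA135, the second-largest subunit, had 189 FPKM in IMX372 and 175 FPKM in the reference, a log2 ratio of 0.11. Its model in the table (chromosome 16, 577520 to 578848, CEN.PK113-7D assembly) spans 1329 bases, 36.8% of the length of the gene in the R64 annotation of strain S288C, so its level describes only a part of the gene. The stalk genes went different ways in sign, neither called. RPA43, which contacts the initiation factor Rrn3, had 159 FPKM in IMX372 and 147 FPKM in the reference, a log2 ratio of 0.11. RPA14, its small stalk partner, had 147 FPKM in IMX372 and 155 FPKM in the reference, a log2 ratio of -0.07, the only one of the 7 below 0.

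The remaining polymerase I genes encode subunits added to the core. RPA34 and RPA49 form a dimer that resembles the polymerase II factor TFIIF and aids initiation and elongation. RPA34 had 356 FPKM in IMX372 and 297 FPKM in the reference, and its log2 ratio of 0.26 was the highest of the polymerase I class (Cuffdiff p = 0.106 unadjusted, q = 0.998 in the authors' deposited table). RPA49 had 256 FPKM in IMX372 and 236 FPKM in the reference, a log2 ratio of 0.12. So the 2 partners of this dimer differed by less than 0.2 in log2 ratio, and no test of that difference could be made. RPA12, a zinc-ribbon subunit needed for cleavage of backtracked RNA, had 537 FPKM in IMX372 and 459 FPKM in the reference, a log2 ratio of 0.23. Over the class of 7, 0 were called and the median log2 ratio was 0.11.

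The median log2 ratio of polymerase II was 0.11, like that of polymerase I, and the order of these 2 enzymes turned with the choice of subunits counted. RPO21, the largest subunit, whose C-terminal repeats carry the phosphorylation marks of the transcription cycle, had 37.7 FPKM in IMX372 and 39.1 FPKM in the reference, a log2 ratio of -0.05. RPB2, its partner in the active site, had 83.7 FPKM in IMX372 and 82.7 FPKM in the reference, a log2 ratio of 0.02. Both catalytic genes were thus within 0.1 of 0 on the log2 scale. RPB3 and RPB11, the alpha-related platform of polymerase II, had 215 and 603 FPKM in IMX372 and 190 and 560 FPKM in the reference. Their log2 ratios were 0.18 and 0.11.

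RPB4 and RPB7 form the stalk of polymerase II, a dimer that can leave the enzyme and also acts in messenger RNA decay. RPB4 had 379 FPKM in IMX372 and 339 FPKM in the reference, a log2 ratio of 0.16. RPB7 had 340 FPKM in IMX372 and 345 FPKM in the reference, a log2 ratio of -0.02. The RPB7 model is also short, at 87.8% of the R64 gene length, and the other 29 models equal the R64 length. RPB9, a zinc-ribbon subunit that acts in start site choice and fidelity, had 450 FPKM in IMX372 and 380 FPKM in the reference, and its log2 ratio of 0.24 was the highest of the class (Cuffdiff p = 0.14 unadjusted, q = 0.998 in the authors' deposited table). Over these 7 genes, 0 were called, 5 lay above 0, and the median log2 ratio was 0.11.

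Polymerase III had the highest median log2 ratio of the single-enzyme classes, 0.20 over 10 genes with 9 above 0 and 0 called. RPO31, the largest subunit, had the lowest level and the lowest log2 ratio of all members, with 24.7 FPKM in IMX372, 26.2 FPKM in the reference and a log2 ratio of -0.08. RET1, the second-largest subunit, named for its part in termination, had 46.7 FPKM in IMX372 and 45.1 FPKM in the reference, a log2 ratio of 0.05. Both catalytic genes of polymerase III were thus within 0.1 of 0 on the log2 scale. So were those of polymerase II and RPA190 of polymerase I. RPA135 of polymerase I, measured on a partial model, lay just outside at 0.11. The smaller subunits of polymerase III carried its median.

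RPC53 and RPC37, a TFIIF-like dimer of polymerase III that acts in termination and reinitiation, had 85.9 and 104 FPKM in IMX372 and 75.5 and 88.4 FPKM in the reference. Their log2 ratios were 0.19 and 0.23. RPC82, RPC34 and RPC31 form a trimer specific to polymerase III that contacts its initiation factors. RPC82 had 64.5 FPKM in IMX372 and 58.8 FPKM in the reference, a log2 ratio of 0.14. RPC34 had 93.1 FPKM in IMX372 and 80.8 FPKM in the reference, a log2 ratio of 0.20. RPC31 had 211 FPKM in IMX372 and 182 FPKM in the reference, a log2 ratio of 0.21. The 5 genes of these 2 modules thus lay in a narrow band of log2 ratios between 0.14 and 0.23.

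RPC25 and RPC17, the stalk of polymerase III, had 198 and 128 FPKM in IMX372 and 187 and 110 FPKM in the reference. Their log2 ratios were 0.08 and 0.22. RPC11, the zinc-ribbon subunit with RNA cleavage activity, had 461 FPKM in IMX372 and 388 FPKM in the reference, and its log2 ratio of 0.25 was the highest of the class (Cuffdiff p = 0.144 unadjusted, q = 0.998 in the authors' deposited table). The equivalent zinc-ribbon genes RPA12, RPB9 and RPC11 were close together in both level and ratio, at log2 ratios between 0.23 and 0.25.

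The shared subunits included the members with the highest ratios. RPC19 and RPC40, the alpha-related pair used by polymerases I and III, differed from each other in ratio. RPC19 had 634 FPKM in IMX372 and 513 FPKM in the reference, a log2 ratio of 0.31 (Cuffdiff p = 0.0607 unadjusted, q = 0.998 in the authors' deposited table). RPC40 had 405 FPKM in IMX372 and 397 FPKM in the reference, a log2 ratio of 0.03. Whether the pair differs could not be tested on pooled values.

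Of the 5 subunits common to all 3 enzymes, RPB10 stood highest in level and in ratio. RPB10, a small zinc-binding subunit at the assembly platform, had 3289 FPKM in IMX372 and 2641 FPKM in the reference, a log2 ratio of 0.32 (Cuffdiff p = 0.0539 unadjusted, q = 0.998 in the authors' deposited table). RPC10, the other small zinc-binding subunit, had 2418 FPKM in IMX372 and 2155 FPKM in the reference, a log2 ratio of 0.17. Both have models of 213 bases, the shortest among the members. RPO26, the counterpart of bacterial omega, had 942 FPKM in IMX372 and 799 FPKM in the reference, a log2 ratio of 0.24. RPB5, part of the lower jaw, had 462 FPKM in IMX372 and 424 FPKM in the reference, a log2 ratio of 0.12. RPB8 had 1289 FPKM in IMX372 and 1318 FPKM in the reference, a log2 ratio of -0.03, the only one of the 5 below 0. The median log2 ratio of the 5 was 0.17, and 0 were called.

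**Figure D2:**
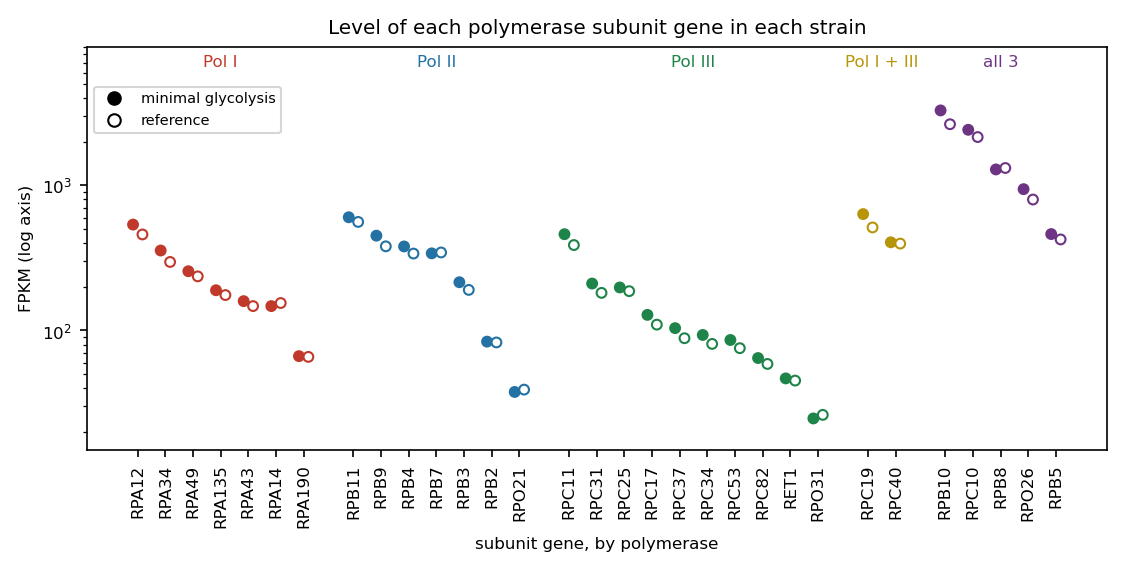
FPKM of each subunit gene on a log axis in the minimal glycolysis strain (filled) and the reference (open), 1 pooled value per strain, grouped by polymerase and ordered by level. The levels run from RPO31 at 24.7 FPKM in the minimal glycolysis strain and 26.2 FPKM in the reference up to RPB10 at 3289 FPKM in the minimal glycolysis strain and 2641 FPKM in the reference, and the paired points of each gene lie close together.

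The level differences between subunits were far larger than those between strains. Expressed per length as FPKM, RPB10 stood 133-fold above RPO31 in IMX372 and 101-fold above it in the reference. In each enzyme the largest subunit had the lowest level of its class, and in both strains 27 of the 31 members stood above the median of all tested genes. The exceptions were RPO21, RPO31, RET1 and RPC82. The subunits shared by all 3 enzymes had the shortest median model length of the classes, at 441 bases. Their median level was 1289 FPKM in IMX372 and 1318 FPKM in the reference. The median was 189 FPKM in IMX372 and 175 FPKM in the reference for polymerase I, 340 FPKM in IMX372 and 339 FPKM in the reference for polymerase II, and 98.4 FPKM in IMX372 and 84.6 FPKM in the reference for polymerase III. The order of members by level was nearly the same in both strains, with 16 members at the same rank and no member shifted by more than 2 ranks.

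Length went with level. Across the 31 members, FPKM was lower for longer models, with a Spearman's rho of -0.82 in IMX372 and -0.81 in the reference, beside -0.53 in IMX372 and -0.51 in the reference across 5329 genes. These are correlations across genes, which share the libraries and are not independent replicates. The FPKM of a very short model, such as those of RPB10 and RPC10, depends most on the effective length used for it, which is not given in the sources used here.

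Between equivalent subunits, polymerase I had the higher level at the catalytic core and polymerase II at the stalk. RPA190 stood 1.77-fold above RPO21 in IMX372 and 1.68-fold above it in the reference, and RPO21 stood 1.52-fold above RPO31 in IMX372 and 1.49-fold above it in the reference. Among the second-largest subunits, RPB2 stood 1.79-fold above RET1 in IMX372 and 1.83-fold above it in the reference. RPA135 was higher than both, from its partial model. At the stalk, RPB7, also from a partial model, stood 2.14-fold above RPA43 and 1.72-fold above RPC25 in IMX372. In the reference it stood 2.34-fold and 1.85-fold above them. RPB4 stood 2.58-fold above RPA14 and 2.96-fold above RPC17 in IMX372, and 2.19-fold and 3.09-fold in the reference. The zinc-ribbon genes were close together, since RPA12 stood 1.19-fold above RPB9 in IMX372 and 1.21-fold in the reference. Of the large alpha-related subunits, RPC40 of polymerases I and III stood 1.89-fold above RPB3 in IMX372 and 2.09-fold above it in the reference. RPC19 and RPB11, the small alpha-related subunits, exchanged order, as RPC19 stood at 1.05 times RPB11 in IMX372 and at 0.916 times it in the reference.

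**Figure D3:**
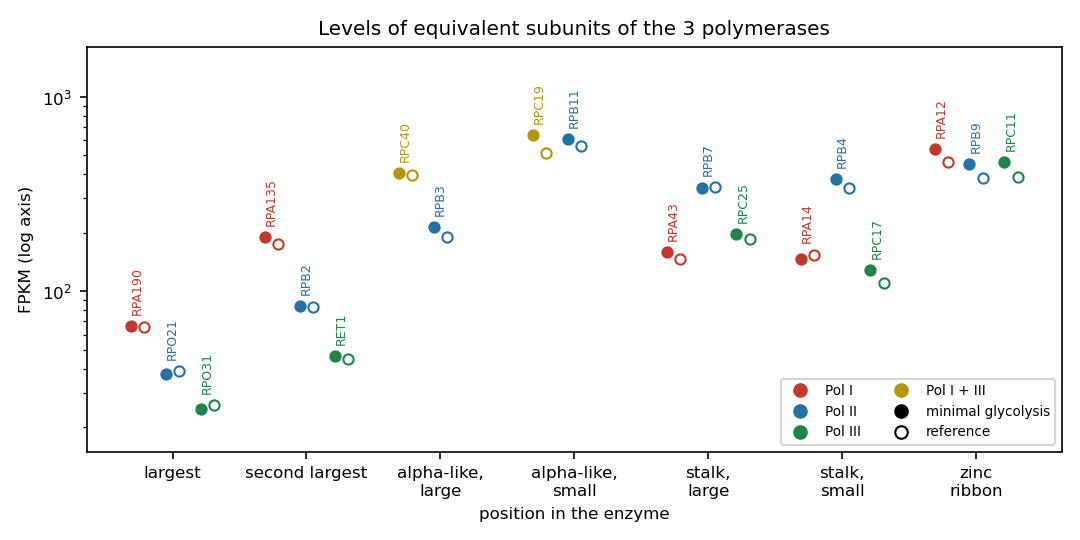
FPKM on a log axis of subunits that hold the same position in polymerase I, II and III, in the minimal glycolysis strain (filled) and the reference (open). RPA190, RPO21 and RPO31 step down in that order, RPB7 and RPB4 stand above the other stalk genes, and RPA12, RPB9 and RPC11 lie within 1.21-fold of each other in either strain.

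The dimers that polymerases I and III carry as built-in factors differed in level too. RPA34 stood 4.14-fold above RPC53 in IMX372 and 3.93-fold above it in the reference. RPA49 stood 2.47-fold above RPC37 in IMX372 and 2.67-fold above it in the reference. Each of the 4 genes had a log2 ratio between 0.12 and 0.26, and the order of levels within these pairs was the same in both strains.

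The log2 ratio moved with model length across the whole table, which touches every comparison between large and small subunits. Over 5329 genes the ratio was lower for longer models, with a Spearman's rho of -0.34, and over the 31 members with one of -0.48. Within the classes rho was -0.36 for polymerase I, -0.46 for polymerase II and -0.77 for polymerase III. The 5 members of 2000 bases or more, which are RPA190, RPO21, RPB2, RPO31 and RET1, had a median log2 ratio of 0.02, beside -0.05 for the 1215 other genes of that length. The 11 members under 500 bases had a median of 0.22, beside 0.07 for 549 others. The 10 members of 500 to under 1000 bases had a median of 0.19, beside 0.07 for 1434 others, and the 5 of 1000 to under 2000 bases had one of 0.12, beside 0.01 for 2100 others. In each length class the members' median thus stood above that of the other genes. The ratio also rose with expression, taken as the geometric mean FPKM of the strains. Spearman's rho was 0.43 over the 31 members and 0.21 over 5329 genes. The length classes do not account for expression. Of the 31 members, 27 lay above the median of all genes of their length class, and the exceptions were RPA14, RPB7, RPB8 and RPO31. With a polynomial fit on length and expression removed, the median log2 ratio was 0.09 for polymerase I, 0.07 for polymerase II and 0.14 for polymerase III, beside 0.003 for all genes. The part of length in the single ratios was not tested further.

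**Figure D4:**
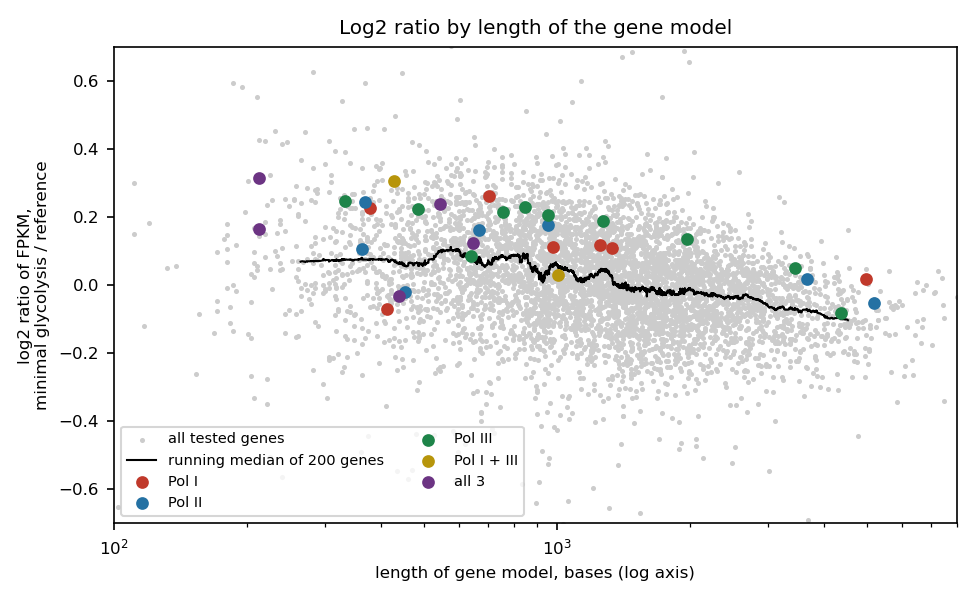
Log2 ratio of FPKM, minimal glycolysis strain over reference, against the length of the gene model on a log axis, for all tested genes (grey), the running median of 200 genes (line) and the subunit genes (coloured by polymerase). The running median falls with length, most subunit genes lie above it, and 62 genes outside the plotted range are not shown.

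By position the members were spread over 10 chromosomes, with 8 on chromosome 15 and 5 on chromosome 4. None lay on chromosomes 3 and 5, which hold 20 of the 28 models called higher in the authors' deposited table. The share of all tested genes on these chromosomes was not counted, so the absence is not read as a trait of the members. RPA43 (chromosome 15, 959104 to 960084) and RPA190 (960887 to 965881) are neighbours in the table with 802 bases between their models. By their systematic names, YOR340C and YOR341W, they point away from each other. Their log2 ratios were 0.11 and 0.02. RPO26 (chromosome 16, 911259 to 911802) likewise has as its neighbour PZF1, the gene of the factor TFIIIA that serves polymerase III at its ribosomal RNA gene, with 235 bases between the models. PZF1 had 37.3 FPKM in IMX372 and 32.8 FPKM in the reference, a log2 ratio of 0.18, beside 0.24 for RPO26. The libraries do not mark the strand, so reads of overlapping genes cannot be told apart. No model in the table overlapped a member, but in R64 the reading frame YDR157W overlaps RPA14.

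The factors that work with the polymerases held no called gene either. The lists of initiation, elongation, assembly and repression factors and the mitochondrial polymerase held 64 genes. Of the 64, 0 were called by Cuffdiff, beside 0.791% of all tested models. Above 0 lay 55 of the 64, beside 53.0% of all tested genes. SPT4 alone of the 64 had an unadjusted Cuffdiff p under 0.05, beside 3.27% of all tested models. For polymerase I initiation, the median log2 ratio was 0.06 over 9 genes, 7 of them above 0. UAF30, of the upstream activating factor, had 48.7 FPKM in IMX372 and 40.4 FPKM in the reference, a log2 ratio of 0.27. RRN11, of core factor, had 28.6 FPKM in IMX372 and 25.5 FPKM in the reference, a log2 ratio of 0.17.

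The general factors of polymerase II had a median log2 ratio of 0.11, with all 18 above 0. TOA1, a TFIIA subunit, had 163 FPKM in IMX372 and 139 FPKM in the reference, a log2 ratio of 0.23. TFB4, a TFIIH subunit, had 78.0 FPKM in IMX372 and 66.9 FPKM in the reference, a log2 ratio of 0.22. The elongation list had a median of 0.14, with 12 of 17 above 0. SPT4, which binds polymerase II with Spt5 during elongation, had 840 FPKM in IMX372 and 671 FPKM in the reference, a log2 ratio of 0.32 (Cuffdiff p = 0.0486 unadjusted, q = 0.998 in the authors' deposited table). CTK3, of the kinase complex that acts on the RPO21 repeats, had 78.5 FPKM in IMX372 and 66.6 FPKM in the reference, a log2 ratio of 0.24.

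Polymerase III initiation factors had a median log2 ratio of 0.04, with all 9 above 0. TFC1, a TFIIIC subunit, led them with 48.4 FPKM in IMX372 and 42.1 FPKM in the reference, a log2 ratio of 0.20. The value comes from the longer of its models, of 906 bases, whose share of the gene was not determined. PZF1, given above, came next. MAF1, the repressor of polymerase III, had 78.4 FPKM in IMX372 and 76.8 FPKM in the reference, a log2 ratio of 0.03. SPT15, the TATA-binding protein used by all 3 systems, had 336 FPKM in IMX372 and 322 FPKM in the reference, a log2 ratio of 0.06. Assembly and import factors had a median of 0.13, with all 7 above 0. NPA3, a GTPase that brings polymerase II to the nucleus, had 207 FPKM in IMX372 and 166 FPKM in the reference, a log2 ratio of 0.32. RBA50, an assembly factor, had 112 FPKM in IMX372 and 97.4 FPKM in the reference, a log2 ratio of 0.20. RPO41, the mitochondrial polymerase, had 25.7 FPKM in IMX372 and 27.2 FPKM in the reference, a log2 ratio of -0.08, and its factor MTF1 had a log2 ratio of -0.001. MTF1 was thus in effect at 0. RPO41, with a long model of 4056 bases, lay near the largest nuclear subunits RPO31 at -0.08 and RPO21 at -0.05.

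**Figure D5:**
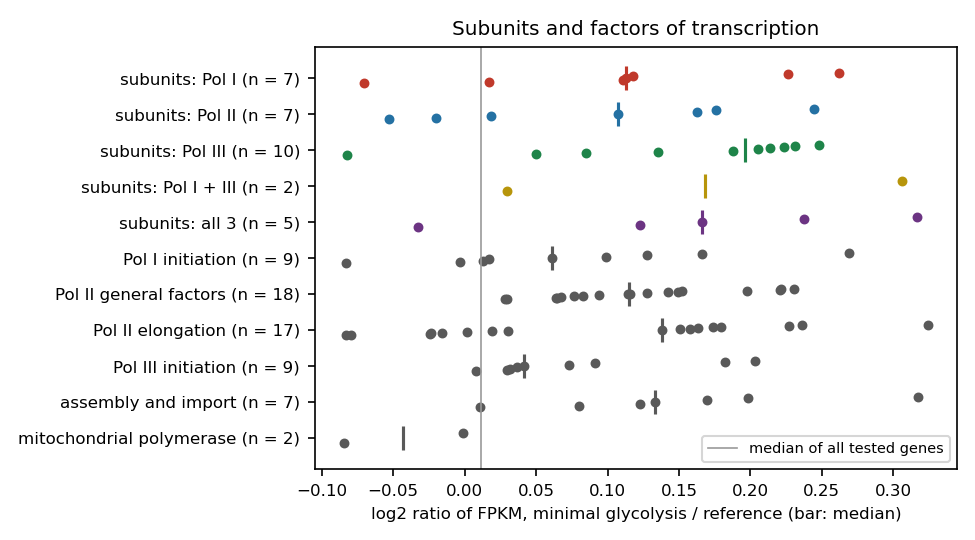
Log2 ratio of FPKM, minimal glycolysis strain over reference, for the subunit genes by class and for lists of transcription factors (points, 1 per gene), with the median of each list as a bar and the median of all tested genes as a line. Polymerase III subunits have the highest median of the classes particular to 1 enzyme at 0.20. Of the 2 mitochondrial genes, RPO41 lies below 0 and MTF1 almost at 0.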

How the data were processed

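Sequencing libraries came from cDNA with a kit that does not mark strand, per the labels' protocols, and the labels give both single reads of 51 bases and a paired-end protocol. The tools named, with no roles, are Cuffdiff, Cufflinks, BWA 0.5.9-r16, CASAVA 1.8.2 and SAMtools 0.1.7-r510, per the submitters' processing notes. The genome was that of CEN.PK113-7D, per the labels. The deposited table holds the authors' FPKM per gene model and strain, pooled over 2 libraries, their log2 ratio, and their p-value and q-value from Cuffdiff. Of 5472 models 5437 were tested, 32 were not and 3 exceeded the authors' limit.

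Symbols came from R64 through systematic names, and the longest tested model per name was kept. Log2 ratios were recomputed from FPKM with nothing added, and the largest deviation from the authors' value was 1.31e-05. Among the 100 lowest models no step in FPKM times length made more than 25% of values whole within 0.05, so reads were not recovered and no interval is given. The fit on length and expression, a polynomial of degree 3 in each, took up 10.3% of the variance. It was tried only on simulated data with a straight trend in length and 2-fold changes. Those changes are larger than any member's, so the trial does not bear on the small medians with the fit removed.

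Members and lists were chosen with earlier results of these data known. All members are named, and of each factor list its called genes or the 2 with the largest absolute log2 ratio. Promoter motifs and protein identity, which had been planned, and sequences were not analysed here, since the R64 genome is not the build of the table. Python 3.11.15, pandas 2.3.3, numpy 2.4.6 and matplotlib 3.10.9 were used.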

Additional observations from a re-analysis of the deposited data

How the results depend on the processing

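No setting called a member. The count stayed at 0 in all members and in each class under recomputed q-values, a q of 0.01, an FPKM of at least 10, or a 2-fold change on any scale tried. These settings had little or no room to change the count, so they add no support to it. The smallest unadjusted Cuffdiff p of a member was 0.0539, above the cut-off of 0.05. The lowest level was 24.7 FPKM, in IMX372, and the largest ratio was 1.25-fold. The polymerase I, II and III and all-member medians of 0.11, 0.11, 0.20 and 0.14 were 0.10, 0.10, 0.18 and 0.12 when centred on all genes, and 0.090, 0.072, 0.14 and 0.10 with the fit on length and expression removed. Counting shared subunits with each enzyme gave 0.12, 0.14 and 0.19 for polymerases I, II and III. Means instead of medians gave 0.11 for polymerase I, 0.091 for polymerase II and 0.15 for polymerase III. With 5 FPKM added, the median of polymerase III was 0.19 and that of all members 0.12. Without the short models RPA135 and RPB7, a choice made after seeing the data, polymerase II had 0.13 and all members 0.16. Polymerase III kept the highest of the 3 values in each of these settings. Polymerase II stood above polymerase I with shared subunits counted and without the short models, and below it in the others. Centring takes the same amount from each gene and could not change this order. Counting shared subunits adds many of the same genes to the classes, so it says little about the order. Members above 0 numbered 26, and 27 with the fit removed, where RPO21 alone changed sign, to 0.02. No paired analysis was possible because the table pools the libraries of a strain, and no library could be left out for the same reason.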
